A study of Mus musculus with 10 samples.

Results

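Semaphorins, plexins and neuropilins form a ligand and receptor system of axon guidance, and its genes were followed in trigeminal ganglia of mouse embryos with and without Prdm12. The members were the protein-coding genes whose symbols name semaphorins of classes 3 to 7, plexins of classes A to D, or Nrp1 and Nrp2. This gave 31 genes of the 55414 gene IDs in the count files, namely 20 semaphorins, 9 plexins and 2 neuropilins. All 31 passed the filter on low counts, with at least 30 counts in every library. The trigeminal ganglion holds the neurons for touch, pain and temperature of the face, and Prdm12 encodes a zinc finger protein needed for the development of pain-sensing neurons (nociceptors).

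Both groups were C57Bl6 embryos of stage E13.5 with the label Sox10 Venus+. The knockout group was Prdm12-/- (5 libraries, numbered 16, 29, 42, 49 and 50) and the wild-type group was Prdm12+/+ (5 libraries, numbered 22, 24, 32, 35 and 45). The titles give the groups a different first letter, and only the wild-type titles carry the words Venus plus. Any difference in handling that the letter or these words mark cannot be told apart from genotype. The labels name no sorting of cells, so each library was taken as the whole dissected ganglion, in which fewer cells of a type and less RNA per cell cannot be told apart. The labels do not tie each library to an embryo of its own. What the p-values measure is therefore the variation among these 10 libraries, which may be partly technical.

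Semaphorins are secreted or membrane-bound proteins that steer growing axons, mostly by repulsion, and plexins are the receptors that pass the signal into the cell. Most secreted class 3 semaphorins do not bind plexins alone and need a neuropilin as the binding partner, whereas class 4 to 7 semaphorins bind plexins directly. Neuropilins also bind vascular endothelial growth factors and are found on blood vessels as well as on axons. In sensory ganglia the system is best known for Sema3a, which repels the axons of neurons that depend on nerve growth factor through Nrp1 and Plxna4.

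Levels are given as CPM, which scales the counts of a gene to the size of its library, with TMM factors. Fold changes set the knockout over the wild type on the log2 scale, and SE is the standard error of that estimate. Library totals ran from 3258008 counts in knockout 49 to 33556002 counts in knockout 16, so that 3 counts, the limit a count of 0 allows, equal 0.869 CPM in that shallow library and 0.0889 to 0.236 CPM elsewhere. Prdm12 stood at 18.2 ± 14.1 CPM in knockout and 182 ± 76.7 CPM in wild-type libraries (SD, n = 5 each; edgeR adjusted p = 0.0156), while the extent of the deletion is not stated in the labels. Neuronal genes of the sensory ganglion were present in both groups, with Isl1 averaging 364 CPM in knockout and 630 CPM in wild-type libraries, and Prph 1560 CPM in knockout and 1430 CPM in wild-type libraries. Of the 12 neuronal markers 11 had a negative estimate, with a median of -0.45, while 46.3% of all tested genes had a positive one. At an unadjusted p under 0.05 in edgeR, 6 of the 12 were lower, against 6.73% of all genes. EdgeR called none of the 12 at an adjusted p under 0.05. DESeq2 called 1 of them lower, against 1.23% of the genes it tested. The summed level of 9 nociceptor markers was 672 to 928 CPM in knockout and 1310 to 3660 CPM in wild-type libraries. Of the 9, 8 had a negative estimate. At an adjusted p under 0.05 edgeR called 5 lower, against 0.372% of all genes, and DESeq2 6, against 1.23%. Over 8 markers of mechanoreceptors and proprioceptors the sums were 726 to 1140 CPM in knockout and 469 to 538 CPM in wild-type libraries. Of these 8, 6 had a positive estimate. EdgeR called 1 higher and 1 lower, against 0.0944% and 0.372% of all genes. DESeq2 called 3 higher and 2 lower, against 1.75% and 1.23%.

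Single libraries stood apart in both groups. Knockout 29 had a summed level of 5470 CPM over 10 glial markers, against 1650 to 2320 CPM in knockout 16, 42, 49 and 50 and 1580 to 2850 CPM in wild-type libraries, and it lay apart from all others on the second principal component of log2 CPM (19.3% of the variance). Wild-type 32 and 35 lay apart on the first principal component (32.2% of the variance). Their sums over 10 mesenchyme markers were 942 and 1230 CPM, against 3050 to 11300 CPM in knockout libraries and 4820 to 6540 CPM in wild-type 22, 24 and 45. The same 2 wild-type libraries and knockout 29 had the highest sums over 12 neuronal markers, at 16800 CPM in knockout 29 and 16400 and 17100 CPM in wild-type 32 and 35. The markers did not all go with the sum in knockout 29. Nefm (4900 CPM), Tubb3 (3410 CPM) and Prph (2860 CPM) were higher there than in any other library. Stmn2 (980 CPM) and Elavl4 (285 CPM) lay below every wild-type library. Knockout 16 had the highest sum over 7 central nervous system markers, 138 CPM, against 1.35 to 32.1 CPM in knockout 29, 42, 49 and 50 and 0.444 to 41.3 CPM in wild-type libraries. Estimates that moved by more than 1.5 times or turned their sign without wild-type 32 and 35, which leaves 5 knockout and 3 wild-type libraries, are also given without them.

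No member differed between the genotypes past the threshold. With edgeR's quasi-likelihood test, adjusted over all 18005 genes tested, 0 of 31 members were called in either direction, where 84 of all genes, or 0.467%, were called (17 or 0.0944% higher and 67 or 0.372% lower in the knockout). At an unadjusted p under 0.05, 6 members were higher (Nrp2, Plxna1, Sema7a, Sema6b, Sema4c and Sema3b) and 1 was lower (Sema6d), which is 22.6% of the members. Among all genes the share was 13.1%, with 6.40% higher and 6.73% lower. DESeq2 called 1 member, Nrp2, which is 3.23% of them against 2.98% of the 20219 genes it tested (1.75% higher and 1.23% lower), and limma-voom called 0 of 31 against 0.539% of all genes. The log2 fold change was positive for 22 of 31 members and negative for 9 (Sema4b, at -0.01, turned to 0.04 with RLE scaling), with a median of 0.20, whereas 46.3% of all tested genes had a positive value and their median was -0.03. For 18 members the 95% confidence interval of the log2 fold change lay within 1 unit of 0 on both sides, so for these genes the interval leaves out a change of 2-fold or more.

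**Figure D1:**
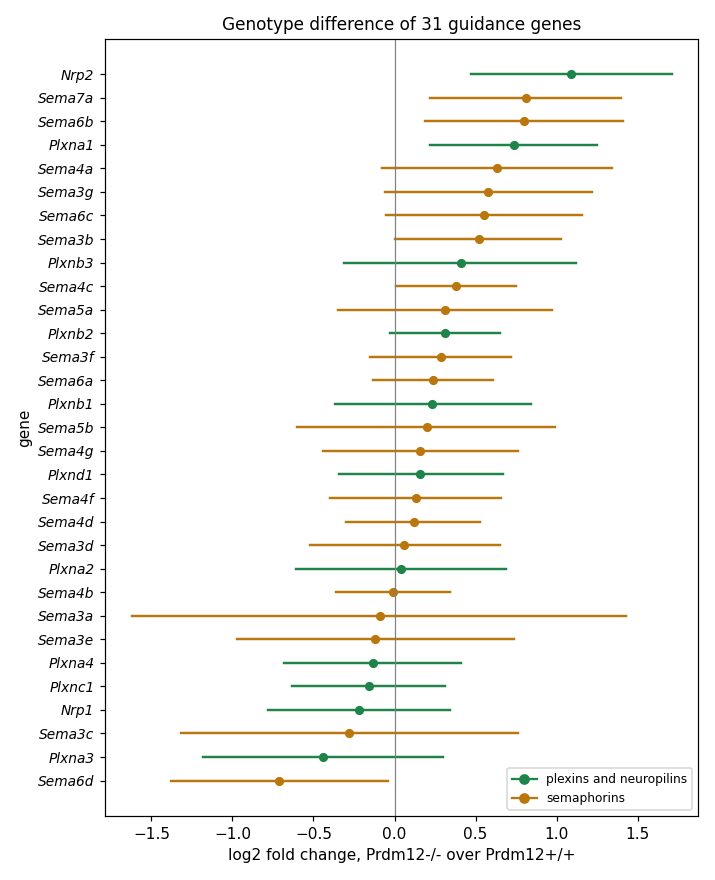
Log2 fold change (Prdm12-/- over Prdm12+/+, horizontal axis) of the 31 genes with its 95% confidence interval from edgeR; points are estimates and bars are intervals not adjusted for multiple testing. Nrp2 has the largest estimate, 1.09, and Sema6d the lowest, -0.71; the interval of Sema3a is wide, from -1.62 to 1.43.

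The receptors with the highest level for their length were Plxna3, Nrp1 and Plxnb2. Divided by the length of all their exons, Plxna3 stood at 42.1 ± 12.2 CPM per kb in knockout and 57.2 ± 25.8 CPM per kb in wild-type libraries. Nrp1 was at 36.1 ± 6.44 CPM per kb in knockout and 42.1 ± 16.2 CPM per kb in wild-type libraries. Plxnb2, the most even of the 3, was at 41.6 ± 5.05 CPM per kb in knockout and 33.5 ± 6.15 CPM per kb in wild-type libraries (SD, n = 5 each). Below them by their mean over all 10 libraries came Plxna4, Plxnd1, Plxnb1 and Nrp2 with means from 31 to 25.8 CPM per kb, then Plxna1 (14.4), Plxnc1 (8.05), Plxna2 (6.83) and Plxnb3 (2.17 CPM per kb). Neighbours in this order were closer than 1 SD over libraries, with the exceptions of Plxna1 above Plxnc1 and Plxna2 above Plxnb3, which are 2 of 10 neighbouring pairs. With the longest coding transcript as the length, chosen after seeing the data, Nrp1 came first at 106 CPM per kb, then Plxna3 at 56.4 and Nrp2 at 45.5 CPM per kb.

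**Figure D2:**
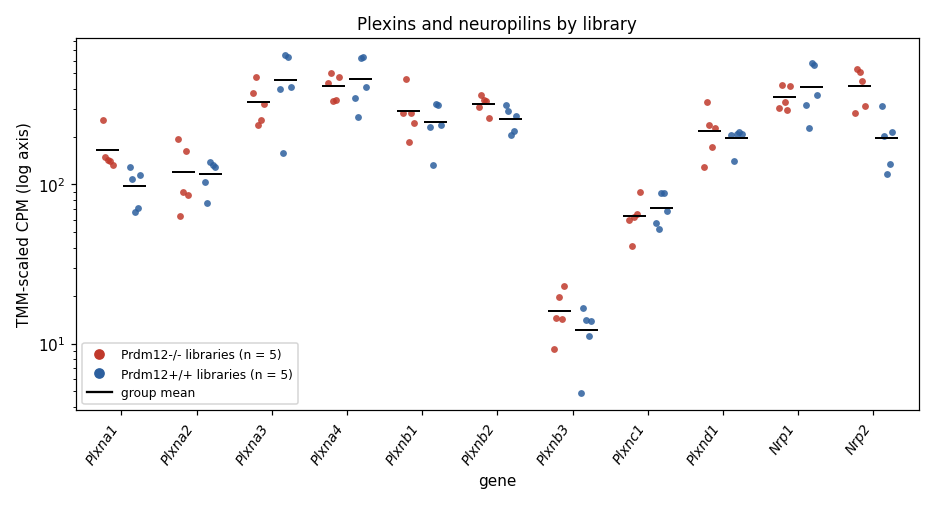
TMM-scaled CPM (vertical log axis) of the 9 plexin and 2 neuropilin genes in each library, with knockout libraries on the left and wild-type libraries on the right of each gene; points are libraries and bars are group means. Plxna1 is the gene whose groups do not overlap, and Nrp2 has the largest gap between means, 416 against 196 CPM. Levels of different genes on this axis are not corrected for length.

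Nrp2 had the smallest p of the family. It encodes the neuropilin that binds Sema3f and Sema3c, and it also serves as a receptor for lymphatic growth factors. Its level was 282, 530, 511, 450 and 310 CPM in knockout 16, 29, 42, 49 and 50, against 313, 202, 116, 134 and 213 CPM in wild-type 22, 24, 32, 35 and 45. The groups overlapped only through wild-type 22, which lay just above knockout 16 and 50. Nrp2 averaged 416 ± 115 CPM in knockout and 196 ± 78.0 CPM in wild-type libraries (SD, n = 5 each). On the log2 scale the knockout was higher by 1.09 (SE 0.28, 95% interval 0.47 to 1.71, edgeR adjusted p = 0.139). DESeq2 gave 1.14 with an adjusted p of 0.0092. Without wild-type 32 and 35 the estimate was 0.83 (edgeR adjusted p = 0.516). The sum of 11 endothelial markers, none at 0 in all libraries, was 437 to 1000 CPM in knockout and 224 to 556 CPM in wild-type libraries. EdgeR called none of the 11, and 9 were higher at an unadjusted p under 0.05, against 6.4% of all genes. DESeq2 called 5 of the 11 higher, against 1.75% of all genes it tested. The lowest 2 endothelial sums, 224 and 297 CPM, belonged to the same wild-type libraries that were lowest in Nrp2, 32 and 35. These libraries also had the lowest mesenchyme sums, 942 and 1230 CPM. Among knockout libraries, knockout 16 was lowest in both the endothelial sum (437 CPM) and Nrp2. Knockout 50 had the highest endothelial sum, 1000 CPM, but 310 CPM of Nrp2. The part of vessel content in the Nrp2 values was not tested.

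Nrp1, the neuropilin that Sema3a needs, showed a different distribution. It stood at 302, 424, 329, 293 and 417 CPM in knockout 16, 29, 42, 49 and 50, against 314, 226, 584, 568 and 368 CPM in wild-type 22, 24, 32, 35 and 45. The knockout values all lay inside the wild-type range. Its log2 fold change was -0.22 (SE 0.26, 95% interval -0.78 to 0.34, edgeR adjusted p = 0.718), and it turned to 0.28 without wild-type 32 and 35. The 2 neuropilins thus differed in which wild-type libraries were high: wild-type 32 and 35 had the most Nrp1 and the least Nrp2 of all 10 libraries.

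Among class A plexins, the partners of neuropilins and receptors of class 6 semaphorins, Plxna1 was the single member of the family whose groups did not overlap. That is 3.23% of the 31 members, while 4.21% of all tested genes were separated in this way and 1.29% were so with the knockout higher, and nothing is read from a count of 1. Plxna1 was at 254, 148, 142, 141 and 133 CPM in knockout 16, 29, 42, 49 and 50, against 129, 109, 67.2, 71.0 and 114 CPM in wild-type 22, 24, 32, 35 and 45. The lowest knockout and the highest wild-type value were thus close, and knockout 16 lay far above all others. Its estimate of 0.74 (SE 0.24, 95% interval 0.22 to 1.25) did not pass the threshold (edgeR adjusted p = 0.230). It was 0.52 without knockout 16, the library with the high sum of central nervous system markers, and 0.53 without wild-type 32 and 35, and the part of such tissue in knockout 16 was not tested. Exons of Plxna1 share 970 bases with the antisense gene Gm26811 in the annotation at hand, and the sources used here do not give whether counting used strand.

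Plxna3, which pairs with Nrp2 in many neurons, was at 377, 471, 238, 253 and 320 CPM in knockout 16, 29, 42, 49 and 50, against 401, 157, 654, 633 and 411 CPM in wild-type 22, 24, 32, 35 and 45. The wild-type group held both the lowest and the 2 highest libraries. For Plxna3 the log2 fold change was -0.44 (SE 0.34, edgeR adjusted p = 0.577), and it turned to 0.10 without wild-type 32 and 35. Plxna4, the signalling partner of Nrp1 in the response to Sema3a, ranged from 334 to 506 CPM in knockout and from 267 to 637 CPM in wild-type libraries (log2 fold change -0.13, edgeR adjusted p = 0.838), with 0.33 when wild-type 32 and 35 were left out. Plxna2 ranged from 63.2 to 194 CPM in knockout and from 76.1 to 138 CPM in wild-type libraries, and its estimate was 0.04 (95% interval -0.61 to 0.69).

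Class B plexins are receptors of class 4 semaphorins. Plxnb2 stood at 307, 364, 338, 336 and 261 CPM in knockout 16, 29, 42, 49 and 50, against 316, 288, 204, 216 and 268 CPM in wild-type 22, 24, 32, 35 and 45. The groups overlapped through knockout 16 and 50, and wild-type 32 and 35 were the lowest of all. Its log2 fold change was 0.31 (SE 0.16, 95% interval -0.03 to 0.65, edgeR adjusted p = 0.409), and 0.19 without wild-type 32 and 35. Plxnb1 was at 185 to 463 CPM in knockout and 133 to 322 CPM in wild-type libraries. Plxnb3, the member with the lowest level for its length among receptors, was at 9.19 to 22.9 CPM in knockout and 4.87 to 16.8 CPM in wild-type libraries. All 3 had positive estimates, from 0.23 to 0.41, and none passed the threshold.

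Plxnc1, the receptor of Sema7a, was at 40.8 to 89.2 CPM in knockout and 52.5 to 88.9 CPM in wild-type libraries (log2 fold change -0.16, 95% interval -0.63 to 0.31, edgeR adjusted p = 0.768). Plxnd1 is the receptor of Sema3e and is known for its role in vessel patterning. It was at 128 to 330 CPM in knockout and 140 to 213 CPM in wild-type libraries (log2 fold change 0.16, 95% interval -0.34 to 0.67, edgeR adjusted p = 0.781). Its highest level was in knockout 29 and its lowest in knockout 16, so the knockout group spanned the wild-type range on both sides.

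The 3 semaphorins with the highest mean level for their length were membrane-bound. Sema6d was at 21.1 ± 6.28 CPM per kb in knockout and 34.5 ± 14.7 CPM per kb in wild-type libraries. Sema4c was at 23.3 ± 6.32 CPM per kb in knockout and 17.9 ± 1.54 CPM per kb in wild-type libraries, and Sema6c at 22.4 ± 10.9 CPM per kb in knockout and 15.3 ± 2.10 CPM per kb in wild-type libraries (SD, n = 5 each), so that only Sema6d had its higher mean in the wild type. Sema4g, the secreted Sema3f, Sema4f and Sema6a followed with means over all libraries from 18.2 to 16.1 CPM per kb. No gap larger than 1 SD set them apart from Sema6d, Sema4c and Sema6c. A gap larger than 1 SD over libraries came after Sema6a, above Sema7a at 9.99 CPM per kb, and this was the only such gap among 19 neighbouring pairs of semaphorins. At the other end of the order stood the secreted semaphorins Sema3d (2.53), Sema3a (2.10) and Sema3e (1.13 CPM per kb). With the longest coding transcript as the length, Sema6d again came first at 45.5 CPM per kb, followed by Sema4g at 34.7 and Sema6c at 27.8 CPM per kb. The low end changed with that length. The membrane-bound Sema5b (4.44), Sema3d (3.44) and Sema3e (1.53 CPM per kb) then came last, and Sema3a stood above them at 4.91 CPM per kb.

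**Figure D3:**
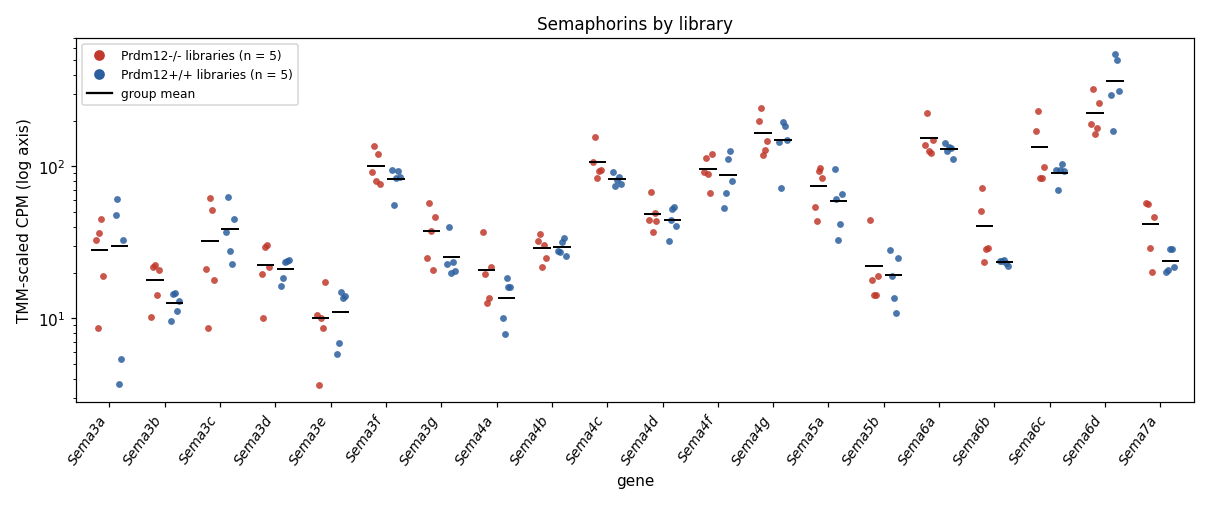
TMM-scaled CPM (vertical log axis) of the 20 semaphorin genes in each library, with knockout libraries on the left and wild-type libraries on the right of each gene; points are libraries and bars are group means. Sema6b spans 23.3 to 72.1 CPM in the knockout and 22.1 to 24.3 CPM in the wild type, and Sema3a has its 2 lowest values, 3.67 and 5.36 CPM, in wild-type libraries.

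The 7 secreted class 3 semaphorins had log2 fold changes between -0.28 (Sema3c) and 0.58 (Sema3g), with a median of 0.06 and none called. Sema3b stood at 10.2, 21.9, 22.4, 14.2 and 20.9 CPM in knockout 16, 29, 42, 49 and 50, against 9.58, 14.4, 14.7, 11.2 and 13.0 CPM in wild-type 22, 24, 32, 35 and 45. Knockout 29, 42 and 50 lay above every wild-type library, while knockout 16 and 49 lay inside the wild-type range. For Sema3b the log2 fold change was 0.52 (SE 0.24, 95% interval 0.00 to 1.03, edgeR adjusted p = 0.380). Sema3f, the main ligand of Nrp2 among repellents, was at 76.3 to 137 CPM in knockout and 55.8 to 95.3 CPM in wild-type libraries (log2 fold change 0.29, edgeR adjusted p = 0.538). Sema3g, a semaphorin of arterial endothelium, was at 20.8 to 57.8 CPM in knockout and 19.8 to 40.1 CPM in wild-type libraries (log2 fold change 0.58, edgeR adjusted p = 0.420).

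Sema3a is described in full although its p was among the largest, because it varied most between libraries; it was chosen after its values were seen. It stood at 32.7, 8.58, 36.4, 44.9 and 19.1 CPM in knockout 16, 29, 42, 49 and 50, against 47.5, 60.5, 3.67, 5.36 and 32.8 CPM in wild-type 22, 24, 32, 35 and 45. The highest wild-type value was in library 24 and the lowest in library 32, so the wild-type group held both extremes of the 10 libraries. Its log2 fold change was -0.09 with an SE of 0.70 (edgeR adjusted p = 0.966), limma-voom gave 0.42, and edgeR without wild-type 32 and 35 gave -0.70 (adjusted p = 0.808). The 3 libraries lowest in Sema3a, knockout 29 and wild-type 32 and 35, also had the 3 lowest mesenchyme sums, 3050, 942 and 1230 CPM, and the part of that tissue in the Sema3a values was not tested. Sema3c, at 8.65 to 62.2 CPM in knockout and 22.8 to 62.4 CPM in wild-type libraries, was likewise lowest in knockout 29. Sema3d was at 9.99 to 30.4 CPM in knockout and 16.3 to 24.2 CPM in wild-type libraries, and Sema3e at 3.62 to 17.4 CPM in knockout and 5.81 to 14.8 CPM in wild-type libraries, with knockout 29 the lowest library for both.

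The 6 class 4 semaphorins, ligands of class B plexins of which several also act in immune cells, had estimates between -0.01 (Sema4b) and 0.63 (Sema4a), and none was called. Sema4c was at 106, 157, 83.2, 93.5 and 94.6 CPM in knockout 16, 29, 42, 49 and 50, against 92.0, 74.7, 81.8, 85.6 and 76.2 CPM in wild-type 22, 24, 32, 35 and 45. All knockout libraries but 42 lay above the wild-type range. Its log2 fold change was 0.38 (SE 0.17, 95% interval 0.01 to 0.75, edgeR adjusted p = 0.365), and 0.24 without knockout 29, its highest library. Exons of Sema4c share 334 bases with a noncoding gene on the opposite strand, D430040D24Rik. Sema4a was at 12.6 to 37.1 CPM in knockout and 7.83 to 18.3 CPM in wild-type libraries (edgeR adjusted p = 0.428). Sema4b, Sema4d, Sema4f and Sema4g had estimates of -0.01, 0.12, 0.13 and 0.16, with edgeR adjusted p-values from 0.813 to 0.983. Sema4b was at 21.9 to 36 CPM in knockout and 25.8 to 33.7 CPM in wild-type libraries, and Sema4d at 37 to 67.6 CPM in knockout and 32.1 to 53.7 CPM in wild-type libraries. Sema4f was at 66.3 to 120 CPM in knockout and 53.4 to 127 CPM in wild-type libraries, and Sema4g at 118 to 241 CPM in knockout and 72.2 to 195 CPM in wild-type libraries, so the groups overlapped for all 4.

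Class 5 semaphorins carry thrombospondin repeats and can attract or repel axons. Sema5a was at 43.7 to 97.6 CPM in knockout and 32.9 to 95.9 CPM in wild-type libraries (log2 fold change 0.31, edgeR adjusted p = 0.664), and the estimate was 0.05 without wild-type 32 and 35, its lowest libraries. Sema5b was at 14.2 to 44.5 CPM in knockout and 10.9 to 28.3 CPM in wild-type libraries (log2 fold change 0.20, edgeR adjusted p = 0.840), and the estimate was -0.24 without knockout 16, its highest library, and -0.07 without wild-type 32 and 35.

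The 4 class 6 semaphorins, transmembrane ligands that bind class A plexins without a neuropilin, held both the second largest semaphorin estimate and the lowest. Sema6b stood at 50.8, 72.1, 23.3, 28.7 and 29 CPM in knockout 16, 29, 42, 49 and 50, against 23.9, 23.9, 24.3, 23.2 and 22.1 CPM in wild-type 22, 24, 32, 35 and 45. Wild-type libraries were nearly equal, and knockout 42 lay among them, while the other 4 knockout libraries lay above. Sema6b had a log2 fold change of 0.80 (SE 0.28, 95% interval 0.19 to 1.41, edgeR adjusted p = 0.265), and 0.53 without knockout 29, the library with the high glial sum, whose part was not tested. Sema6c was at 170, 230, 84.0, 83.4 and 98.9 CPM in knockout 16, 29, 42, 49 and 50, against 94.2, 69.7, 94.9, 103 and 92.5 CPM in wild-type 22, 24, 32, 35 and 45. Only knockout 16 and 29 lay above the wild-type range (log2 fold change 0.55, SE 0.28, edgeR adjusted p = 0.415), and the estimate was 0.30 without knockout 29.

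Sema6d, first among semaphorins by its mean level per kb over all 10 libraries but above Sema4c in only 5 of them, was the member with the lowest estimate. It was at 190, 321, 164, 178 and 261 CPM in knockout 16, 29, 42, 49 and 50, against 293, 170, 545, 500 and 311 CPM in wild-type 22, 24, 32, 35 and 45. Wild-type 32 and 35 were far above every other library, and the remaining 3 wild-type libraries lay inside the knockout range. Its log2 fold change of -0.71 (SE 0.31, 95% interval -1.38 to -0.04, edgeR adjusted p = 0.363) was -0.15 without these 2 libraries. They also had the 2 highest nociceptor sums, 3660 and 3360 CPM, and the lowest mesenchyme sums, and the part of the tissue mixture in the Sema6d values was not tested. Sema6a was at 123 to 225 CPM in knockout and 111 to 142 CPM in wild-type libraries (log2 fold change 0.24, edgeR adjusted p = 0.550).

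Sema7a, a membrane-anchored semaphorin that promotes axon growth through integrins and binds Plxnc1, was at 57.5, 56.6, 28.8, 20.3 and 46.2 CPM in knockout 16, 29, 42, 49 and 50. In wild-type 22, 24, 32, 35 and 45 it was at 20.3, 20.9, 28.4, 28.5 and 21.9 CPM. Knockout 49, the shallowest library, lay at the bottom of the wild-type range, and the other 4 knockout libraries lay above it. The log2 fold change was 0.81 (SE 0.27, 95% interval 0.22 to 1.40, edgeR adjusted p = 0.246), and 1.05 without wild-type 32 and 35 (edgeR adjusted p = 0.494).

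Some members shared the libraries in which they were high or low. Knockout 29 was the highest knockout library for 17 of 31 members and the lowest for 7, which is 54.8% and 22.6% of the members, against 30.9% and 35.5% of all tested genes. Wild-type 32 and 35 were both above all other 8 libraries for 4 members (Sema6d, Plxna3, Plxna4 and Nrp1) and both below them for 6 (Sema3a, Sema5a, Sema5b, Plxna1, Plxnb2 and Nrp2). These 4 and 6 are 12.9% and 19.4% of the members, against 14.7% and 15.4% of all tested genes, and nothing particular to the family is read from them. Knockout 29, wild-type 32 and wild-type 35 together were the 3 highest libraries for Sema4d, Sema6d, Plxna3, Plxna4, Plxnb1 and Nrp1, and the 3 lowest for Sema3a and Sema5a, or 19.4% and 6.45% of the members, against 5.24% and 6.08% of all tested genes. These were also the 3 libraries with the highest neuronal sums and the lowest mesenchyme sums. In knockout 29 not every neuronal marker was high, with Stmn2 and Elavl4 below every wild-type library. The part of the tissue mixture in the members' values was not tested.

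Without wild-type 32 and 35 several members with small estimates moved, and none was called. Plxnb1 was then at 0.60, Sema4f at 0.57, Sema4g at 0.50 and Sema4d at 0.36 on the log2 scale, each further above 0 than with all libraries. Sema4a was at 0.95, Plxnd1 at 0.30, Plxna2 at 0.26 and Sema3d at 0.22, while Sema3c was at -0.55. Sema3e turned to 0.24, Sema4b to 0.15 and Plxnc1 to 0.15.

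**Figure D4:**
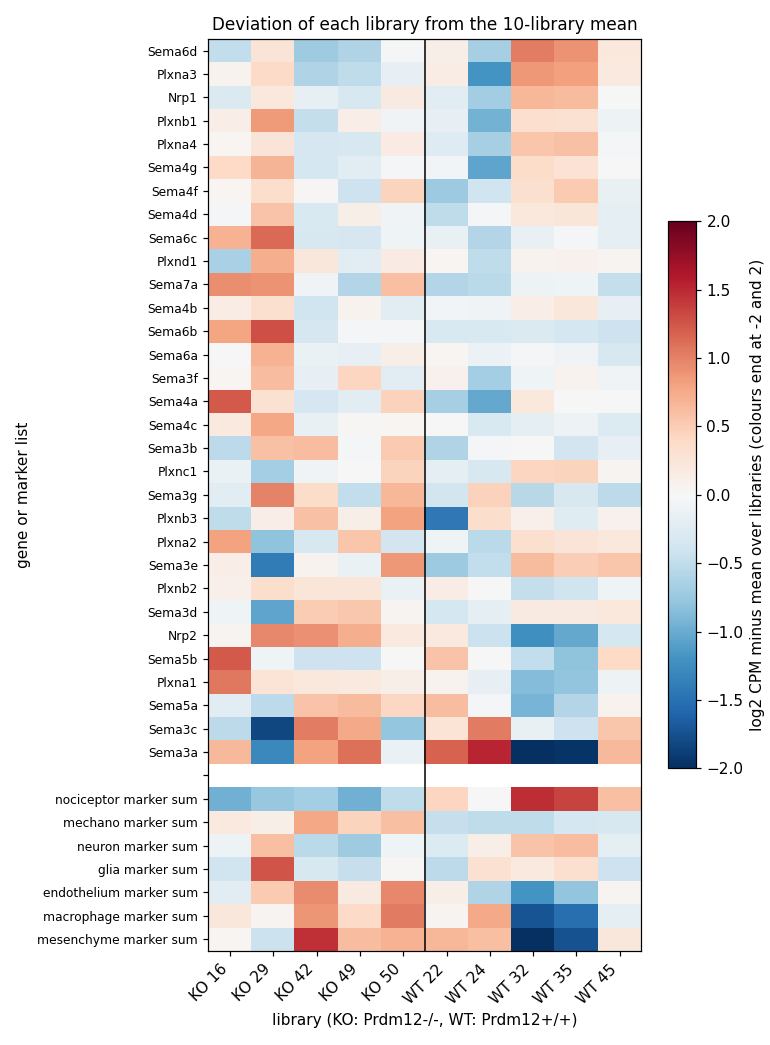
Deviation of each library's log2 CPM from the mean over the 10 libraries (colour, ending at -2 and 2) for the 31 genes and for the summed CPM of 7 marker lists, with 5 knockout libraries left of the line and 5 wild-type libraries right of it. Rows are ordered by the mean deviation in knockout 29 and wild-type 32 and 35. Wild-type 32 and 35 show blue for Sema3a, Nrp2 and Plxna1 and red for Sema6d, Plxna3 and Nrp1.

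The other genes of the pathway, 50 in 4 lists, held 0 called genes with edgeR (11 higher and 2 lower at an unadjusted p under 0.05, or 26.0% of the list against 13.1% of all genes). DESeq2 called 5 higher (Met, Ptk7, Kdr, Flt1 and Flt4) and 1 lower (Adam10), which is 12% of the list against 2.98% of all genes. Limma-voom called Adam10 alone, 1 of 50, against 0.539% of all genes. Of 13 co-receptors and further receptors of semaphorins, 9 had a positive estimate (median 0.60). Of 26 genes that signal below plexins inside the cell, such as the collapsin response mediators and the MICAL enzymes, 16 had one (median 0.12). All 8 vascular endothelial growth factors and their receptors had one (median 0.34), as did 1 of 3 proteases that process semaphorins. Over all 50, 68% had a positive estimate, against 46.3% of all tested genes. The median over all 50 was 0.22, against -0.03 over all tested genes.

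Adam10, a membrane protease that sheds the outer part of guidance proteins and their receptors, came closest to the threshold. It stood at 216, 210, 258, 267 and 304 CPM in knockout 16, 29, 42, 49 and 50, against 411, 385, 601, 614 and 406 CPM in wild-type 22, 24, 32, 35 and 45. Every knockout library lay below every wild-type library, as for 2.92% of all tested genes, which were lower in the knockout without overlap. The log2 fold change was -0.95 (SE 0.18, 95% interval -1.35 to -0.55, edgeR adjusted p = 0.0517). The adjusted p was 0.0493 with edgeR and no filter on low counts, 0.0459 with limma-voom and 0.000843 with DESeq2, and the estimate was -0.63 (edgeR adjusted p = 0.388) without wild-type 32 and 35.

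Met, the hepatocyte growth factor receptor that can associate with class B plexins, was at 10.5, 5.66, 13.2, 16.2 and 12.9 CPM in knockout 16, 29, 42, 49 and 50, against 3.60, 3.39, 2.91, 2.29 and 7.32 CPM in wild-type 22, 24, 32, 35 and 45. The groups overlapped through knockout 29 and wild-type 45. For Met the log2 fold change was 1.57 (SE 0.36, 95% interval 0.79 to 2.36, edgeR adjusted p = 0.0914). The call was made with edgeR without wild-type 45 (1.93, adjusted p = 0.0396), without knockout 29 (1.79, adjusted p = 0.0453) and without the filter on low counts (1.6, adjusted p = 0.0453). Ptk7, a kinase-like receptor that associates with a class A plexin in Xenopus, was at 164, 282, 198, 206 and 212 CPM in knockout 16, 29, 42, 49 and 50, against 169, 168, 114, 122 and 126 CPM in wild-type 22, 24, 32, 35 and 45. Knockout 16 was the 1 knockout library inside the wild-type range, and the log2 fold change was 0.60 (SE 0.17, edgeR adjusted p = 0.188).

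Kdr and Flt1 encode receptors for vascular endothelial growth factor, which neuropilins assist. Kdr was at 80.0, 173, 167, 117 and 256 CPM in knockout 16, 29, 42, 49 and 50, against 99.2, 37.5, 51.5, 57.3 and 96.8 CPM in wild-type 22, 24, 32, 35 and 45, and knockout 16 lay inside the wild-type range (log2 fold change 1.22, SE 0.34, edgeR adjusted p = 0.169). Flt1 was at 28.7, 48.9, 45.3, 38.5 and 57.7 CPM in the same knockout libraries, against 27.6, 12.5, 14.7, 18.4 and 28.8 CPM in the wild-type libraries. Knockout 16 again lay just below the highest wild-type library, and the log2 fold change was 1.11 (SE 0.27, edgeR adjusted p = 0.107). Both genes mark endothelium, whose marker sum was also lowest among knockout libraries in knockout 16, at 437 CPM, and the part of vessel content in their values was not tested.

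**Figure D5:**
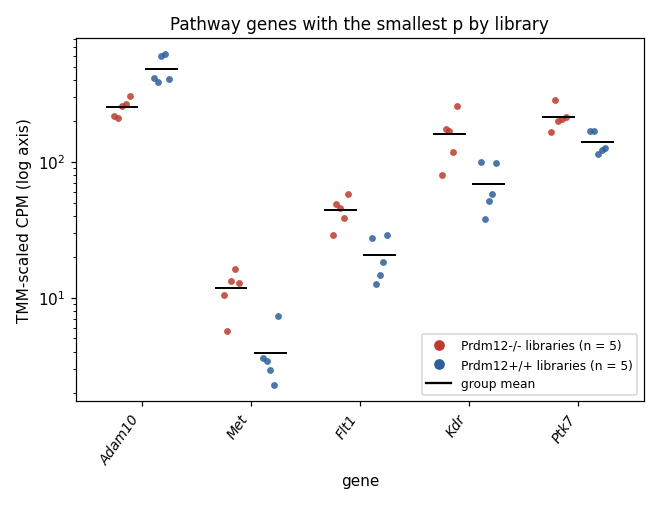
TMM-scaled CPM (vertical log axis) of the 5 pathway genes with the smallest p in each library, with knockout libraries on the left and wild-type libraries on the right of each gene; points are libraries and bars are group means. The 5 knockout libraries of Adam10 lie at 210 to 304 CPM, below all wild-type libraries at 385 to 614 CPM, and the other 4 genes overlap between groups.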

How the data were processed

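Each library has 1 deposited table of unnormalized read counts by gene ID. The submitters' processing notes list featureCounts 1.5.0-p1, STAR 2.7.10a and bcl2fastq 2.20.0.422, and the builds GRCm39 and mm10, without saying which step each served. Annotation, strand and multi-mapping settings: not given in the sources used here. Symbols came from an ID table (52081 of 55414 IDs matched), and biotypes, exon lengths and overlaps from GENCODE M21 (GRCm38), so no coordinates are given. Of the 31 members, 7 share exon bases with another gene.

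Genes were kept with filterByExpr (minimum count 10), scaled with TMM and tested with edgeR's quasi-likelihood test (edgeR 4.0.16, R 4.3.3), with Benjamini-Hochberg adjustment and a threshold of 0.05. Intervals are 95% and come from the same fit. Scaling, filter, tool (DESeq2 1.42.0, limma 3.58.1) and libraries were varied, and the scripts were checked on simulated data. A chi-square statistic per gene between libraries of 1 group was at least 9.88 (wild-type 32 and 35), so none was counted as a duplicate. Counting limits cover counting error only.

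The members and gene lists were chosen with earlier results of these data known. Every member is named; values of every library are given for the 8 members with the smallest p and the 3 ligands and 3 receptors with the highest level per length, and 5 pathway genes with the smallest p are named.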

Additional observations from a re-analysis of the deposited data

Results flagged for a closer look

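For 37 genes (the 31 members, Prdm12 and the 5 named pathway genes) each group of 5 libraries was searched for 1 value far from the other 4. Of the 74 sets, 8 held such a value. The cutoff is passed by about 1 in 20 sets of independent normal values. These sets share the same libraries and hold untransformed CPM, so the count was not set against chance. Prdm12 was at 42.7 CPM in knockout 29, against 8.74 to 17.0 CPM in the other knockout libraries. Knockout 16 was high for Plxna1, at 254 CPM against 133 to 148 CPM, and for Sema5b, at 44.5 CPM against 14.2 to 18.9 CPM. Knockout 29 was high for Sema6a, at 225 CPM against 123 to 150 CPM. Wild-type 24 accounted for 3 of the 8 values: it was low for Plxnd1, at 140 CPM against 205 to 213 CPM, low for Sema3f, at 55.8 CPM against 83.9 to 95.3 CPM, and high for Sema3g, at 40.1 CPM against 19.8 to 23.4 CPM in the other wild-type libraries. Met was high in wild-type 45, at 7.32 CPM against 2.29 to 3.60 CPM.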

How the results depend on the processing

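No paired analysis was possible because the groups share no replicate number. Apart from the 1 call of Nrp2 by DESeq2, the alternatives run (RLE scaling, no filter on low counts, DESeq2, limma-voom, each library left out in turn, and without 2 pairs of libraries) called 0 members in either direction. Over all genes, the calls were 55 higher and 102 lower without the filter on low counts, and 354 and 248 with DESeq2. They were 0 and 19 without wild-type 32 and 35, and 6 higher without knockout 29 and 49. With each library left out they ran from 2 to 35 higher and from 27 to 88 lower: 35 were higher without knockout 16 or without wild-type 24 and 23 without knockout 29, against 2 to 6 without any other 1 library, and 27 to 32 were lower without knockout 42, 49 or 50 or wild-type 32 or 35, against 49 to 88 without any other. Pathway genes called higher were 1 without the filter and 5 with DESeq2, and 0 to 1 with each library left out; 1 was called lower without the filter, with DESeq2 and with limma-voom. The call of Prdm12 was lost without wild-type 32 and 35 (edgeR adjusted p = 0.110), without knockout 49 (0.0561) and without knockout 50 (0.0616). The scaling alternatives moved the median of all genes by less than 0.1.

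Log2 fold changes that turned their sign were small. Without wild-type 32 and 35 they were 0.24 (Sema3e), 0.15 (Sema4b), -0.07 (Sema5b), 0.10 (Plxna3), 0.33 (Plxna4), 0.15 (Plxnc1) and 0.28 (Nrp1). Without knockout 29 and 49 they were 0.20 (Sema3e), -0.10 (Sema4d) and -0.06 (Plxnb1). Limma-voom gave 0.42 for Sema3a, -0.01 for Sema3d and -0.11 for Plxna2, and Sema4b was at 0.04 with RLE scaling and 0.03 with DESeq2. With each library left out, the range was -0.36 to 0.39 for Sema3a, -0.68 to 0.00 for Sema3c, -0.07 to 0.28 for Sema3d, -0.41 to 0.13 for Sema3e, -0.07 to 0.08 for Sema4b, 0.00 to 0.22 for Sema4d, 0.00 to 0.30 for Sema4f, -0.24 to 0.37 for Sema5b, -0.21 to 0.23 for Plxna2 and -0.24 to 0.04 for Plxna4. The cause was not tested.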

Other observations

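Single libraries stood out for 3 pathway genes, chosen after their values were seen. Chl1, a cell adhesion molecule that can bind neuropilins, reached 142 CPM in knockout 16, with 10.7 to 31 CPM in knockout 29, 42, 49 and 50, against 8.44 to 38.9 CPM in wild-type libraries (log2 fold change 1.13, SE 0.70, edgeR adjusted p = 0.496). Cntn2, an adhesion molecule of axons, was at 277 to 1230 CPM in knockout libraries, highest in knockout 29, against 791 to 1700 CPM in wild-type libraries, highest in wild-type 32 and 35 (log2 fold change -0.97, SE 0.39, edgeR adjusted p = 0.336). Crmp1, a mediator of the response to Sema3a inside the axon, was at 1010 and 1090 CPM in knockout 16 and 29 and 376 to 569 CPM in knockout 42, 49 and 50, against 319 to 577 CPM in wild-type libraries (edgeR adjusted p = 0.493).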
